A study of Mus musculus with 16 samples.

Results

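Lyz2, Cd68, Adgre1, Mrc1, Cd163, Msr1, Lyve1, Ccr2, Cx3cr1 and Ly6c2 are 10 genes that mark monocytes and macrophages, and they were examined in footpad epidermal cells of mice fed with or without a dietary source of ligands of the aryl hydrocarbon receptor (AhR). Each was found by its symbol among the 50600 Ensembl identifiers of the count table, and each symbol matched exactly 1 identifier. There were 16 libraries from female C57/B6J mice, in 4 groups of 4 biological replicates, and the study's methods name the single animal as the unit of its animal experiments. The mice were put at 5 wk of age on a synthetic diet (SYNTH), which is low in AhR ligands and called AhR-poor here, and the I3C groups ate it with indole-3-carbinol added at 200 ppm. After 3 wk each footpad received 50 μl of PBS, the vehicle, in which 50 μg of the protease papain was given to the papain groups, and epidermal cells were taken 6 hr later. The libraries were T108 to T111 for the I3C diet with vehicle and T100 to T103 for the AhR-poor diet with vehicle. With papain they were T106, T113, T114 and T115 for the I3C diet, and T104, T105, T107 and T112 for the AhR-poor diet. No transgene or deletion is given for these mice. Animals were caged by diet, and the effects of diet and cage cannot be told apart.

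Monocytes are blood cells that enter tissue, above all inflamed tissue, and can become macrophages there. Ccr2, the receptor of the chemokines Ccl2, Ccl7 and Ccl12, is needed for monocytes to leave the bone marrow, and classical monocytes carry Ly6c2 together with Ccr2. Tissue macrophages carry scavenger and lectin receptors such as Cd163, Msr1 and Mrc1, and their survival depends on the growth factors Csf1 and Il34. In the epidermis itself the resident relatives of macrophages are Langerhans cells, which depend on Il34 made by keratinocytes, whereas most skin macrophages sit in the dermis. None of the 10 genes belongs to 1 cell type alone. Neutrophils also carry Lyz2, Langerhans cells Adgre1 and Cd68, lymphatic endothelium Lyve1 and Mrc1, and T cells and dendritic cells Cx3cr1. In bulk RNA, fewer cells of a type and less RNA in each cell cannot be told apart.

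The labelled cells were checked first. Keratinocyte markers (Krt5, Krt14, Krt1, Krt10 and Trp63) were abundant in every library, with a summed level from 37080 to 60730 CPM (counts scaled to library size with TMM factors), and 0 of the 5 passed the test in any comparison. In edgeR, 0 to 2 of them had an unadjusted p under 0.05, depending on the comparison, and DESeq2 called 0. Library totals ran from 22500821 to 51844375 counts. At these depths 3 counts, taken as the floor, correspond to 0.0569 to 0.130 CPM. Markers of fibroblasts, endothelium and red cells, which lie outside the epidermis, were present as well and differed between the diets, and their values stand beside the members below.

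Of the 10 genes, Ly6c2 has the closest relative. Ly6c1, which endothelium and other cells carry, lies on the same chromosome, and the coding sequences of the genes are identical at 384 of 393 positions (97.7%). Of the 767 different stretches of 100 bases in the protein-coding transcripts of Ly6c2, 14.9% also occur in Ly6c1. A single read of 100 bases from such a stretch cannot by itself be assigned to either gene, although the mate of a paired read may lie outside it. How the authors' counting treated such reads is not given in the sources used here. The first 90 bases of both coding sequences (GENCODE M21) show how close they are, with the 6 differing bases in capitals.
Ly6c2: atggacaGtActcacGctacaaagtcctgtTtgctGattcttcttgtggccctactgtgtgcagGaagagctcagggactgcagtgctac
Ly6c1: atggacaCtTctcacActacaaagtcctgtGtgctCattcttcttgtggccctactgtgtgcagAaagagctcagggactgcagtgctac
Lyz2 shares 24 of 1217 such stretches (1.97%) with its neighbour Lyz1. Cx3cr1 overlaps the opposite-strand gene Gm33858 over 78 exonic bases, and the other 9 members overlap no exon of another gene.

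Promoters are shown for the members in which a myeloid motif was found. PU.1, the protein of Spi1, is the transcription factor that myeloid cells depend on. GAGGAAG was searched on both strands as a strict form of its motif, and looser matches were not counted. In the RefSeq promoter table for GRCm38.p6 (250 bases before to 50 after each start site), 4477 of 32851 promoters (13.6%) hold these letters. The table had promoters for 7 of the 10 members, and 2 of the 7, Mrc1 and Ly6c2, held the motif. Adgre1, Msr1 and Lyve1 had no entry. The 250 bases upstream are printed 5′ to 3′ on the gene's strand with the motif, or its reverse complement CTTCCTC, in capitals. They lie at chr2:14229164-14229413 on the plus strand for Mrc1, and at chr15:75111972-75112221 on the minus strand for the first of 2 entries of Ly6c2.
Mrc1: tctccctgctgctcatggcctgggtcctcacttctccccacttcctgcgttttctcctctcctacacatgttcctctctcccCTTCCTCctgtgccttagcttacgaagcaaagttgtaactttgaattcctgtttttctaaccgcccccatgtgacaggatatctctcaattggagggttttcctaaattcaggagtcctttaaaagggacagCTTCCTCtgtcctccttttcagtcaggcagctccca
Ly6c2: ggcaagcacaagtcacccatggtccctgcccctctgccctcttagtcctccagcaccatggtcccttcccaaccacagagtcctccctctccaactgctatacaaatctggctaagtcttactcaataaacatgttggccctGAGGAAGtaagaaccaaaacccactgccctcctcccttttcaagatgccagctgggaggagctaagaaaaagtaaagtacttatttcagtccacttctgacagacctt
The matches begin 168 and 36 bases before the start site of Mrc1, and Ly6c2 holds another match 26 bases after its start site, which is not printed. A match is only a run of letters, and no binding was measured here.

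The comparisons asked how the diet changed the epidermal cells with vehicle and with papain, and how papain changed them on each diet. A gene was called at an edgeR adjusted p below 0.01 (Benjamini-Hochberg over the 22155 genes tested) and an absolute log2 fold change of more than 1. All 10 members passed the filter of 10 counts in total, and each had from 51 (Msr1) to 2531 (Cd68) counts outside its highest group. For single genes, an exact permutation test of 4 against 4 libraries cannot go below 0.0286.

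Between the papain groups, 9 of the 10 members were called higher on the AhR-poor diet, against 7.15% of all genes tested. In the same 9, every AhR-poor library lay above every I3C library, which held for 12.5% of all genes. The median log2 fold change of the 10 was 5.15, beside 0.01 over all genes. With vehicle, 4 of the 10 were called higher on the AhR-poor diet, against 1.59% of all genes, and in 8 the libraries did not overlap, against 6.45%. DESeq2 called 6 with vehicle, where it called 589 of 22154 genes higher, against 352 of 22155 in edgeR. The median of the 10 with vehicle was 2.78, beside -0.01 over all genes. Papain raised 7 of the 10 on the AhR-poor diet, against 6.04% of all genes, and the libraries of 7 did not overlap, against 17.0%. The median there was 2.65, beside 0.00 over all genes. On the I3C diet, papain changed 0 of the 10 in edgeR, against 3.69% of all genes called higher and 5.29% called lower. In 1 of them, Cx3cr1, the unadjusted p was under 0.05, DESeq2 called 0, and in 0 of the 10 did every papain library lie above every vehicle library, against 16.2% of all genes. These comparisons share their groups in pairs, so each is given by its own values.

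**Figure D1:**
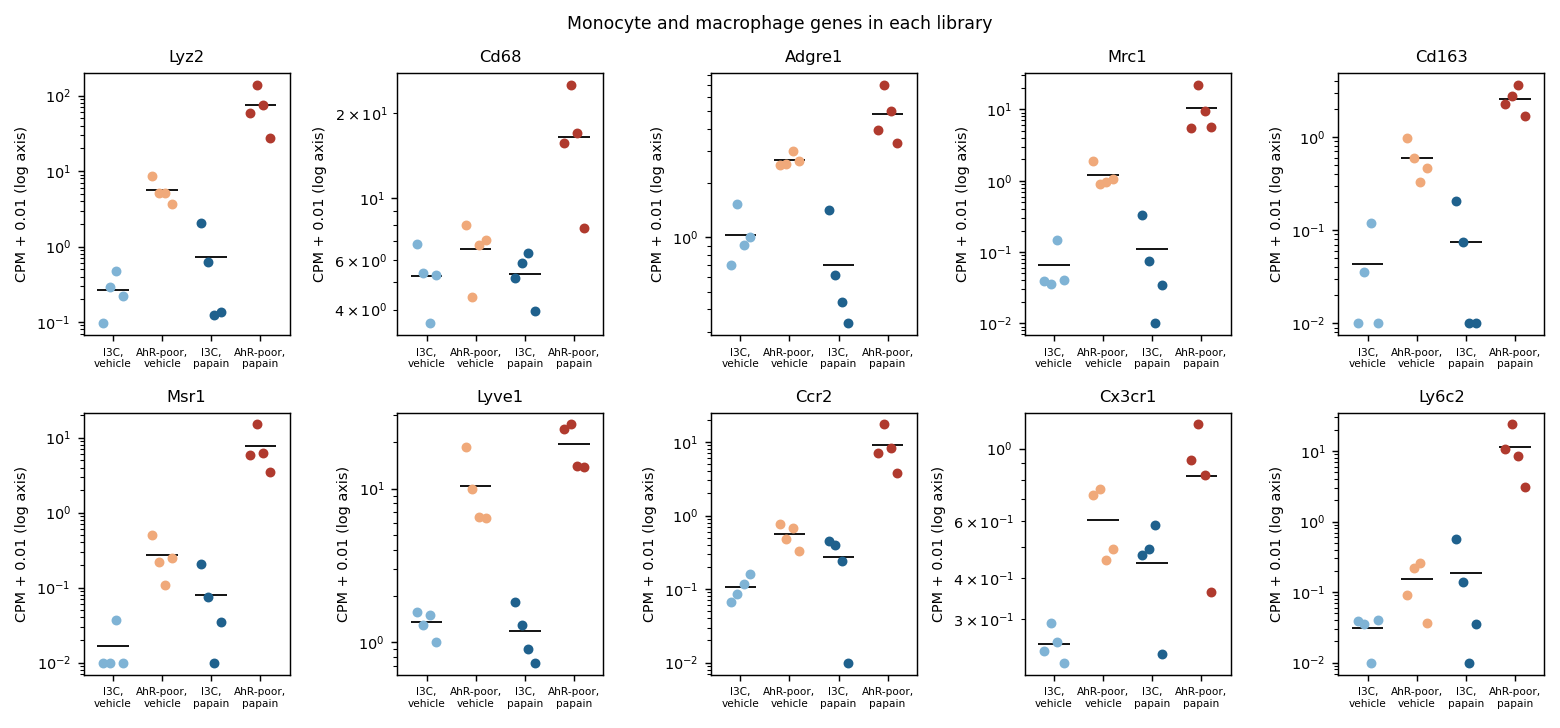
CPM plus 0.01 (log axis) of each member in each of the 16 libraries, by diet and treatment, with 1 point for each library and a line at the group mean. AhR-poor papain libraries were the highest group for all 10 genes by mean, with a Lyz2 mean of 74.8 CPM, and the I3C groups overlapped each other for every gene shown.

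Lyz2 encodes lysozyme, the bacterial cell wall enzyme of macrophages, monocytes and neutrophils (chr10:117277331-117282321, minus strand, GRCm38). It stood at 0.0861, 0.280, 0.463 and 0.210 CPM in the I3C vehicle libraries T108 to T111, and at 8.61, 5.11, 5.14 and 3.67 CPM in the AhR-poor vehicle libraries T100 to T103. With papain it reached 59.0, 138, 75.2 and 27.5 CPM in T104, T105, T107 and T112 on the AhR-poor diet, and 2.02, 0.609, 0.114 and 0.124 CPM in T106, T113, T114 and T115 on the I3C diet. Each AhR-poor group lay wholly above the I3C group of the same treatment, and the AhR-poor papain libraries lay above all others. The I3C groups overlapped each other, with T106 alone above 1 CPM. The diet difference was 100.7-fold with papain (log2 6.65 ± 0.72 SE, adjusted p = 2.95e-05) and 21.1-fold with vehicle (log2 4.40 ± 0.84, adjusted p = 0.00947). Papain raised Lyz2 by 13.3-fold on the AhR-poor diet (log2 3.73 ± 0.59, adjusted p = 0.000262). On the I3C diet the estimate was 1.48 ± 1.06 (adjusted p = 0.316), and it was 0.0080 without T106.

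Cd68 encodes a lysosomal glycoprotein of macrophages and other phagocytes (chr11:69664213-69666153, minus strand). It was at 6.83, 5.38, 3.56 and 5.28 CPM in T108 to T111 and at 8.01, 4.42, 6.78 and 7.05 CPM in T100 to T103. With papain, the AhR-poor libraries T104, T105, T107 and T112 had 15.6, 25.2, 17.0 and 7.80 CPM, and the I3C libraries T106, T113, T114 and T115 had 5.19, 5.87, 6.37 and 3.93 CPM. Of the groups compared, only those given papain did not overlap. Cd68 was 3.08-fold higher on the AhR-poor diet there (log2 1.62 ± 0.29, adjusted p = 0.000943). It rose 2.50-fold with papain on the AhR-poor diet (log2 1.32 ± 0.29, adjusted p = 0.00212), although T112 lay below the highest vehicle library, T100 (exact permutation p = 0.0571). In a fit of only those 8 libraries the adjusted p was 0.0151. With vehicle the diets differed by 0.32 ± 0.29 on the log2 scale (adjusted p = 0.756), and papain on the I3C diet by 0.02 ± 0.30 (adjusted p = 0.988).

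Adgre1 encodes F4/80, the surface receptor by which mouse macrophages are commonly identified (chr17:57358691-57483527, plus strand). Its levels were 0.689, 1.53, 0.898 and 0.991 CPM in T108 to T111 and 2.51, 2.54, 2.99 and 2.66 CPM in T100 to T103. With papain they were 3.94, 6.98, 5.02 and 3.32 CPM in T104, T105, T107 and T112, and 1.41, 0.609, 0.428 and 0.323 CPM in T106, T113, T114 and T115. The AhR-poor papain libraries lay above the AhR-poor vehicle libraries, and those lay above both I3C groups. With papain Adgre1 was 6.86-fold higher on the AhR-poor diet (log2 2.78 ± 0.36, adjusted p = 2.96e-05). With vehicle the difference was 1.37 ± 0.35 and missed the threshold (adjusted p = 0.0367). Without T106, whose value was more than that of any other I3C papain library, it passed (log2 1.36, adjusted p = 0.00424). Papain on the AhR-poor diet gave 0.85 ± 0.33 (adjusted p = 0.0525, exact permutation p = 0.0286). On the I3C diet it gave -0.56 ± 0.38 (adjusted p = 0.283), and without T106 a called decrease of -1.21 (adjusted p = 0.00854).

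Mrc1 encodes the mannose receptor CD206, a lectin of tissue macrophages (chr2:14229392-14332057, plus strand). Only 1, 1, 5 and 1 reads were counted in T108 to T111, or 0.0287, 0.0255, 0.136 and 0.0300 CPM, against 1.88, 0.900, 0.964 and 1.05 CPM in T100 to T103. With papain, T104, T105, T107 and T112 had 5.47, 21.9, 9.48 and 5.58 CPM, whereas T106, T113, T114 and T115 had 0.317, 0.0641, 0 and 0.0249 CPM. The order was AhR-poor papain, AhR-poor vehicle and then both I3C groups, with no overlap until the I3C groups. The diet difference with papain was 96.4-fold (log2 6.59 ± 0.70, adjusted p = 1.18e-05). With vehicle it was 20.4-fold (log2 4.35 ± 0.84, adjusted p = 0.00736). Papain raised Mrc1 8.89-fold on the AhR-poor diet (log2 3.15 ± 0.53, adjusted p = 0.000261). The estimate on the I3C diet was 0.91 ± 1.20 (adjusted p = 0.611) and turned to -0.90 without T106.

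Cd163 encodes the receptor that takes up haemoglobin bound to haptoglobin, found on resident macrophages (chr6:124304656-124330527, plus strand). Of the I3C vehicle libraries, T108 and T111 had 0 reads, T109 had 0.0255 CPM and T110 had 0.109 CPM, and T100 to T103 had 0.954, 0.582, 0.321 and 0.456 CPM. With papain the values were 2.27, 2.75, 3.59 and 1.66 CPM in T104, T105, T107 and T112, and 0.195, 0.0641, 0 and 0 CPM in T106, T113, T114 and T115. As for Mrc1, no library of either AhR-poor group reached down to an I3C library. Cd163 was 36.2-fold higher on the AhR-poor diet with papain (log2 5.18 ± 0.64, adjusted p = 1.74e-05) and 15.3-fold higher with vehicle (log2 3.93 ± 0.78, adjusted p = 0.00627). Papain raised it 4.41-fold on the AhR-poor diet (log2 2.14 ± 0.48, adjusted p = 0.00196). On the I3C diet the estimate was 0.90 ± 1.08 (adjusted p = 0.572), and -0.77 without T106.

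Msr1 encodes a class A scavenger receptor that takes up modified lipoproteins (chr8:39581685-39642673, minus strand). In the I3C vehicle group a single read was counted, in T110 (0.0272 CPM), and T100 to T103 had 0.490, 0.212, 0.0989 and 0.241 CPM. With papain, T104, T105, T107 and T112 reached 5.79, 15.0, 6.32 and 3.48 CPM, and T106, T113, T114 and T115 had 0.195, 0.0641, 0 and 0.0249 CPM. The AhR-poor papain libraries lay apart from all others, and the AhR-poor vehicle libraries overlapped the I3C papain libraries through T106. Msr1 rose 29.4-fold with papain on the AhR-poor diet (log2 4.88 ± 0.55, adjusted p = 5.57e-06) and was 99.4-fold higher there than on the I3C diet with papain (log2 6.64 ± 0.65, adjusted p = 3.44e-06). With vehicle, 39 reads on the AhR-poor diet against 1 gave a ratio of 36.9 (95% exact counting interval 6.25 to 1495), and the adjusted p of 0.0566 missed the threshold. With papain on the I3C diet, 11 reads against 1 gave a ratio of 10.8 (1.56 to 463, adjusted p = 0.176). Such intervals and floors cover counting error only.

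Lyve1 encodes a hyaluronan receptor of lymphatic endothelium and of a class of resident macrophages near vessels (chr7:110850607-110863239, minus strand). It was at 1.55, 1.28, 1.496 and 0.991 CPM in T108 to T111 and at 18.6, 9.95, 6.50 and 6.41 CPM in T100 to T103. With papain it was at 24.6, 26.2, 14.1 and 13.8 CPM in T104, T105, T107 and T112, and at 1.80, 1.28, 0.885 and 0.721 CPM in T106, T113, T114 and T115. Both AhR-poor groups lay above both I3C groups, and within each diet the vehicle and papain libraries overlapped. The diet difference was 16.7-fold with papain (log2 4.06 ± 0.40, adjusted p = 6.14e-06) and 7.77-fold with vehicle (log2 2.96 ± 0.39, adjusted p = 0.000485). Papain on the AhR-poor diet gave 0.93 ± 0.34 (adjusted p = 0.0454), and a call of 1.38 without T100, the highest vehicle library (adjusted p = 0.00142). On the I3C diet the estimate was -0.18 ± 0.42 (adjusted p = 0.792).

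Lymphatic endothelial markers stood high in the same libraries as Lyve1. Of the 6 (Prox1, Flt4, Ccl21a, Mmrn1, Pdpn and Reln), 5 were called higher on the AhR-poor diet with vehicle and 6 with papain, and none was at 0 throughout a group. Their summed level ran from 2.61 to 5.03 CPM with vehicle on the I3C diet and from 18.9 to 75.3 CPM on the AhR-poor diet, where T100 was the highest, as it was for Lyve1. With papain it ran from 9.65 to 12.9 CPM and from 63.9 to 115.3 CPM. Mmrn1, a secreted protein of lymphatic vessels, differed by 3.92 ± 0.67 with vehicle and 5.08 ± 0.74 with papain on the log2 scale (adjusted p = 0.00411 and 0.000256). Pdpn, a membrane protein of lymphatic vessels that keratinocytes and fibroblasts can also carry, had the highest mean of the list and made up most of its level in the I3C papain libraries. It averaged 1.43 and 1.97 CPM with vehicle and 9.96 and 42.3 CPM with papain on the I3C and the AhR-poor diet, and papain raised it by 2.79 ± 0.30 and 4.42 ± 0.30 (adjusted p = 2.59e-06 and 6.67e-08). It was the 1 marker of the list called with papain on either diet. For papain on the AhR-poor diet the estimate of Mmrn1 was 0.05 ± 0.55 (adjusted p = 0.966), and that of Ccl21a, the lymphatic chemokine, 0.33 ± 0.64 (adjusted p = 0.743). The part of lymphatic endothelium in the Lyve1 and Mrc1 values was not tested.

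Ccr2, the monocyte chemokine receptor, lies at chr9:124101950-124113557 on the plus strand. It was at 0.0574, 0.0765, 0.109 and 0.150 CPM in T108 to T111 and at 0.763, 0.477, 0.668 and 0.322 CPM in T100 to T103. With papain, T104, T105, T107 and T112 had 7.04, 17.3, 8.18 and 3.78 CPM, and T106, T113, T114 and T115 had 0.438, 0.385, 0.228 and 0 CPM. The AhR-poor papain libraries lay far above all others, and the AhR-poor vehicle and I3C papain libraries overlapped. Ccr2 was 34.7-fold higher on the AhR-poor diet with papain (log2 5.12 ± 0.58, adjusted p = 1.74e-05) and rose 16.3-fold with papain on that diet (log2 4.02 ± 0.53, adjusted p = 2.88e-05). With vehicle the libraries of the diets did not overlap (exact permutation p = 0.0286), but the log2 difference of 2.48 ± 0.76 missed the threshold over all genes (adjusted p = 0.115). Papain on the I3C diet gave 1.38 ± 0.85 (adjusted p = 0.234).

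Ly6c2, the antigen of classical monocytes, lies at chr15:75108158-75111970 on the minus strand. The vehicle libraries held almost none of it, with 1, 1, 0 and 1 reads in T108 to T111 and 3, 8, 10 and 1 reads in T100 to T103, or at most 0.247 CPM. With papain on the AhR-poor diet it was at 10.7, 23.8, 8.57 and 3.05 CPM in T104, T105, T107 and T112, against 0.560, 0.128, 0 and 0.0249 CPM in T106, T113, T114 and T115. The AhR-poor papain libraries alone stood apart, and the other 3 groups overlapped. Papain raised Ly6c2 78.8-fold on the AhR-poor diet (log2 6.30 ± 0.82, adjusted p = 4.02e-05), and with papain the diets differed 61.1-fold (log2 5.93 ± 0.80, adjusted p = 0.000115). With vehicle, 22 reads on the AhR-poor diet against 3 gave a ratio of 6.94 (95% exact counting interval 2.09 to 36.2, adjusted p = 0.604). With papain on the I3C diet, 28 reads against 3 gave 9.12 (2.82 to 46.9, adjusted p = 0.177), of which 23 came from T106.

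Ly6c1, the relative printed above, followed another pattern. It was at 28.5 to 42.7 CPM in the 8 vehicle libraries and at 95.5 to 124 CPM in the 8 papain libraries, on both diets. Papain raised it by 1.75 ± 0.12 on the AhR-poor diet and by 1.73 ± 0.12 on the I3C diet on the log2 scale (adjusted p = 9.18e-09 and 5.21e-09), and the diets differed by -0.03 ± 0.11 with papain (adjusted p = 0.916). In the I3C papain libraries Ly6c1 was thus at 104.8 to 119.8 CPM while Ly6c2 was at 0.560 CPM or less. Lyz1, the neighbour of Lyz2, was higher on the AhR-poor diet with papain (367 reads against 5, a ratio of 70.7 with a counting interval of 30.0 to 219, adjusted p = 6.66e-07) and with vehicle (85 against 3, a ratio of 26.8, 8.87 to 133, adjusted p = 0.000519). Papain raised Lyz1 by 2.09 ± 0.37 on the AhR-poor diet (adjusted p = 0.000244).

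Cx3cr1, the receptor of the chemokine Cx3cl1, marks nonclassical monocytes and many tissue macrophages (chr9:119901616-120069879, minus strand). It was at 0.230, 0.280, 0.245 and 0.210 CPM in T108 to T111 and at 0.708, 0.741, 0.445 and 0.483 CPM in T100 to T103. With papain it was at 0.911, 1.18, 0.822 and 0.354 CPM in T104, T105, T107 and T112, and at 0.463, 0.481, 0.571 and 0.224 CPM in T106, T113, T114 and T115. The diets did not overlap with vehicle (exact permutation p = 0.0286) and did with papain, where T112 lay below 3 of the 4 I3C libraries. Cx3cr1 was the only member called in none of the comparisons. Its log2 differences were 1.28 ± 0.38 between the diets with vehicle (adjusted p = 0.0814) and 0.93 ± 0.34 with papain (adjusted p = 0.0632). Papain gave 0.47 ± 0.33 on the AhR-poor diet (adjusted p = 0.306) and 0.82 ± 0.39 on the I3C diet (adjusted p = 0.111).

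**Figure D2:**
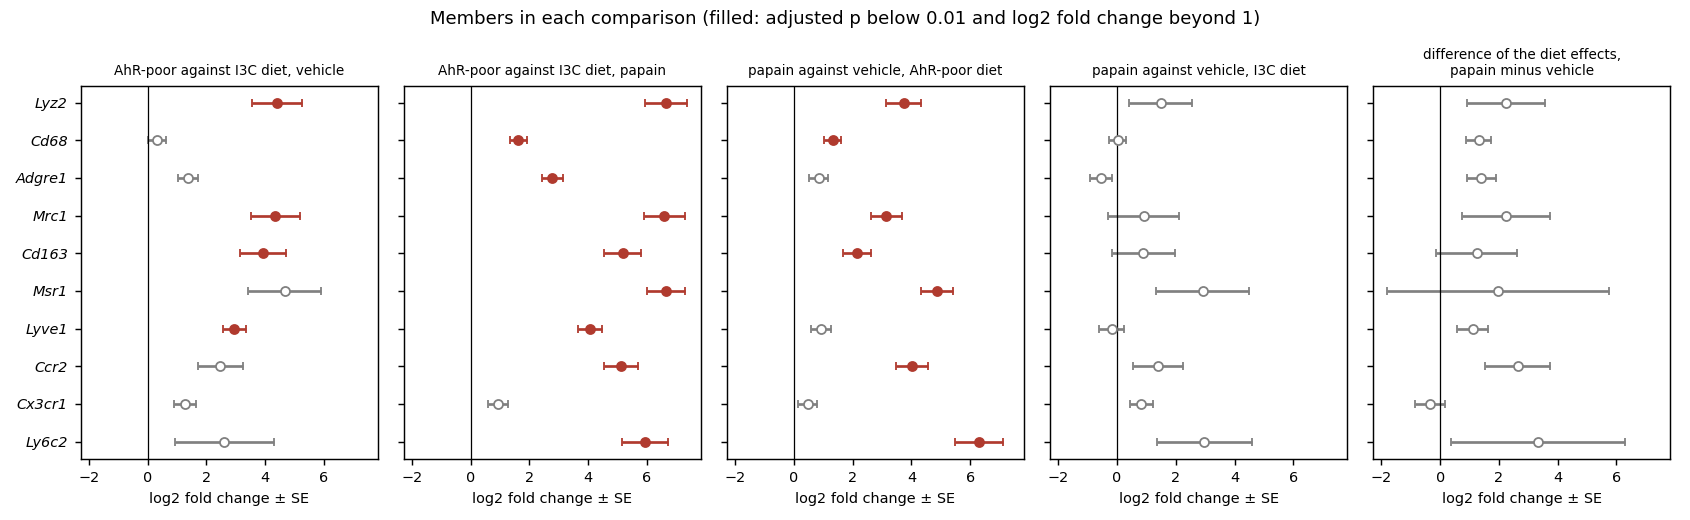
Log2 fold changes of the 10 members with their standard errors in the 4 comparisons and the interaction, from the edgeR fit, with filled points for genes past both thresholds. Filled points number 4, 9, 7, 0 and 0 from left to right, and Cx3cr1 has none.

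The difference between the diet effects, papain minus vehicle, was tested by the interaction. In edgeR 0 of the 10 members passed, against 0.0181% of all genes called higher and 0.0 percent called lower. In 3 (Cd68, Adgre1 and Ccr2) the unadjusted p was under 0.05, and DESeq2 called 0. The estimates were above 0 for 9 of the 10, at 1.31 ± 0.41 for Cd68 (adjusted p = 0.201), 1.41 ± 0.50 for Adgre1 (adjusted p = 0.249) and 2.64 ± 1.11 for Ccr2 (adjusted p = 0.325), and at -0.35 ± 0.51 for Cx3cr1 (adjusted p = 0.806). The standard errors of Msr1 (1.97 ± 3.79) and Ly6c2 (3.33 ± 2.97) were wide beside the estimates, with 1 and 3 reads in the I3C vehicle group. A larger diet effect with papain than with vehicle was thus not shown for any member.

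The 4 calls with vehicle were the least stable. Lyve1 kept its call when any of the 16 libraries was left out (adjusted p at most 0.00370). Lyz2 lost it without any 1 of the 8 vehicle libraries and without T104, T107 or T113, with an adjusted p up to 0.0447. Mrc1 lost it without any 1 of the 8 vehicle libraries and without T107 or T113 (up to 0.0360), and Cd163 without T100, T101, T103, T104, T108, T109, T111 or T113 (up to 0.0314). The direction was higher on the AhR-poor diet in each of these fits. With T110 left out, which held 5 of the 8 Mrc1 reads and 4 of the 5 Cd163 reads of the I3C vehicle group, the log2 differences were 5.25 and 5.51. In a fit of the 8 vehicle libraries alone, 7 members were called, Adgre1, Msr1 and Ccr2 in addition to these 4. That fit called more genes in general, 502 of 20180 higher, against 352 of 22155 in the main fit.

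In the papain comparisons 2 libraries weighed most. T106 held the highest level of 8 members among the I3C papain libraries, and T105, the deepest library, the highest of 9 members in the AhR-poor papain group. Without T106 the log2 diet difference with papain was 8.13 for Lyz2, 8.40 for Mrc1, 6.85 for Cd163, 7.93 for Msr1, 7.85 for Ly6c2 and 3.43 for Adgre1. Without T105 it was 5.94 for Mrc1 and 5.29 for Ly6c2, and papain on the AhR-poor diet then gave 2.50 and 5.66 for these genes. With both libraries left out, an alternative chosen after seeing the data, 9 members were called between the diets with papain, and 7 rose with papain on the AhR-poor diet.

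Levels can be compared between genes only per length, here as CPM per kb of exon. Cd68 led the I3C groups, with 4.19 ± 1.06 CPM per kb with vehicle and 4.25 ± 0.84 with papain (SD, n = 4), above every other member in all 4 libraries of each group. In the AhR-poor vehicle libraries Cd68 (5.22 ± 1.21) and Lyz2 (4.28 ± 1.59) changed places between libraries, with Cd68 above Lyz2 in 2 of 4, and Lyve1 followed with 3.55 ± 1.97. In the AhR-poor papain libraries Lyz2 led with 56.9 ± 35.2, followed by Cd68 with 13.1 ± 5.66, Lyve1 with 6.74 ± 2.27 and Ly6c2 with 4.22 ± 3.22, each above the next in 4 of 4 libraries. Mrc1 (1.67 ± 1.22), Adgre1 (1.49 ± 0.50), Ccr2 (1.34 ± 0.86) and Msr1 (1.21 ± 0.80) came after them. Mrc1 was above Adgre1 in only 1 of 4 libraries, so their order was not settled. Cx3cr1 was the lowest of the 10 there, at 0.181 ± 0.0761.

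Of the members' summed CPM per kb, Cd68 thus took 69.3% to 86.0% in the I3C vehicle libraries and 13.04% to 17.1% in the AhR-poor papain libraries, and Lyz2 took 1.04% to 8.59% and 57.5% to 68.1%. In the AhR-poor vehicle libraries the share of Lyz2 was 23.5% to 31.9% and that of Lyve1 17.2% to 30.5%. Among the I3C papain libraries T106 differed from the rest, with Lyz2 at 21.3%. Ly6c2 rose from at most 0.696% in the AhR-poor vehicle libraries to between 3.06% and 5.67% with papain. Being shares of a sum, these values are not independent of one another.

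**Figure D3:**
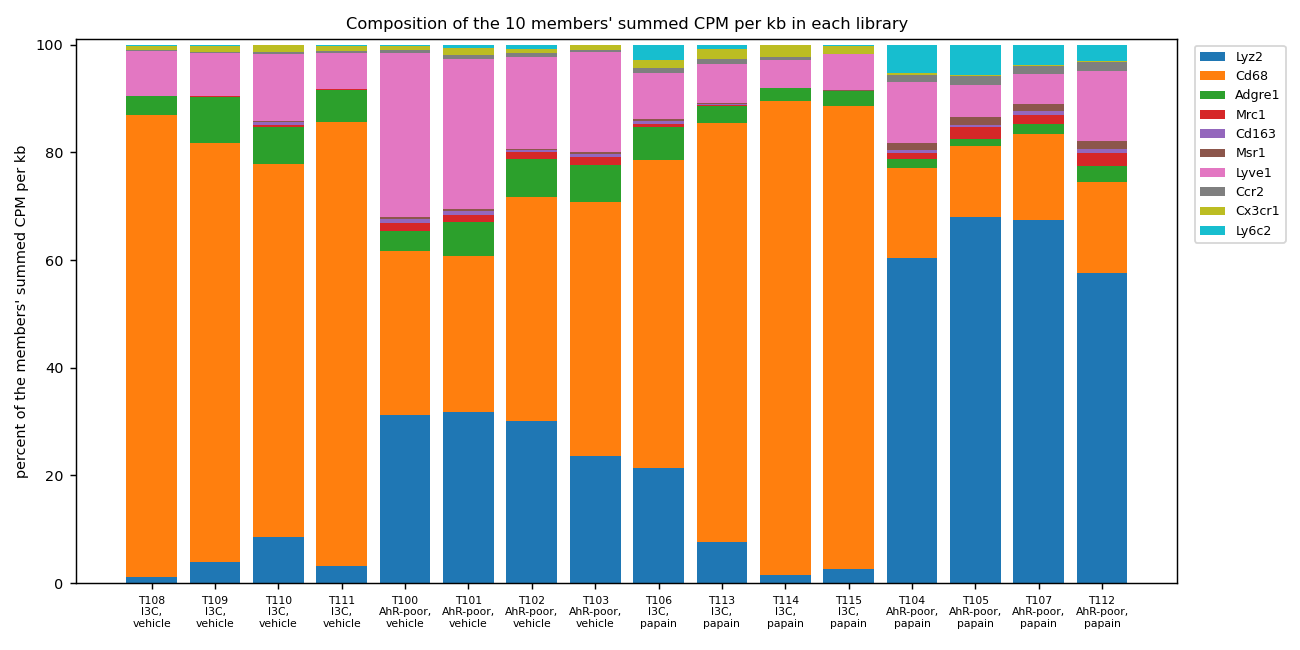
Percent of the 10 members' summed CPM per kb of exon taken by each member, as 1 stacked bar for each library. Cd68 fills 69.3% or more of the I3C vehicle bars, whereas Lyz2 fills 57.5% or more of the AhR-poor papain bars.

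The ligands of the 2 chemokine receptors and the growth factors were then examined. Ccl2, which draws Ccr2-bearing monocytes, was at 5.33 to 23.6 CPM in the I3C vehicle and 4.05 to 11.0 CPM in the AhR-poor vehicle libraries, and with papain at 4.58 to 10.9 CPM and 19.0 to 50.8 CPM. Papain raised Ccl2 by 2.06 ± 0.49 on the AhR-poor diet (adjusted p = 0.00519), and the diets with papain differed by 2.43 ± 0.50 (adjusted p = 0.00376). Its neighbour Ccl7 rose as well, by 3.67 ± 0.52 and 4.02 ± 0.54 (adjusted p = 8.76e-05 and 0.000112), reaching 11.5 to 32.0 CPM in the AhR-poor papain libraries. On the I3C diet papain gave -1.10 ± 0.49 for Ccl2 (adjusted p = 0.103) and -0.07 ± 0.56 for Ccl7 (adjusted p = 0.949). Ccl12 had 0 reads in all 8 I3C libraries, 1 read in the AhR-poor vehicle group and 0.197 to 0.390 CPM with papain on the AhR-poor diet, at least 3.56-fold higher than the floor of 3 reads in each I3C papain library (adjusted p = 0.000437). With vehicle none of these 3 ligands was called between the diets.

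Cx3cl1, the ligand of Cx3cr1, moved the other way by less than the fold threshold. It was at 50.2 to 62.4 CPM in the I3C vehicle libraries, 37.8 to 44.1 CPM in the AhR-poor vehicle libraries, 36.5 to 45.6 CPM in the I3C papain libraries and 26.5 to 34.1 CPM in the AhR-poor papain libraries. Its log2 differences were -0.39 ± 0.09 and -0.45 ± 0.09 between the diets with vehicle and papain (adjusted p = 0.0182 and 0.00168), and -0.47 ± 0.09 and -0.42 ± 0.09 with papain on the AhR-poor and I3C diets (adjusted p = 0.000493 and 0.00119). Csf1, the macrophage growth factor, rose with papain on both diets, by 1.89 ± 0.13 and 1.72 ± 0.13 (adjusted p = 1.17e-08 and 1.40e-08). Il34, the other ligand of the same receptor, fell on both, by 1.80 ± 0.16 and 1.83 ± 0.16 on the log2 scale (adjusted p = 3.04e-07 and 1.22e-07), from 131 to 156 CPM in the vehicle libraries to 28.9 to 56.4 CPM. Neither differed between the diets by the test (Csf1 0.15 ± 0.13 with vehicle and 0.32 ± 0.12 with papain, Il34 -0.04 ± 0.15 and -0.01 ± 0.15). Csf2, a cytokine that acts on granulocytes and macrophages, rose with papain by 3.08 ± 0.55 on the AhR-poor diet (adjusted p = 0.000244), to 0.490 to 1.97 CPM, and was called higher there than on the I3C diet with papain (2.06 ± 0.50, adjusted p = 0.00642), with overlapping libraries.

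Of the 7 ligands and growth factors, 0 were thus called between the diets with vehicle in edgeR (1 with an unadjusted p under 0.05, and 0 in DESeq2). With papain 4, Ccl12 among them, were called higher on the AhR-poor diet. Papain raised 5 and lowered 1 on the AhR-poor diet, and raised 1 and lowered 1 on the I3C diet. Their median log2 fold change with papain was 1.83 between the diets with Ccl12 at its bound, and 2.06 with its fitted value.

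**Figure D4:**
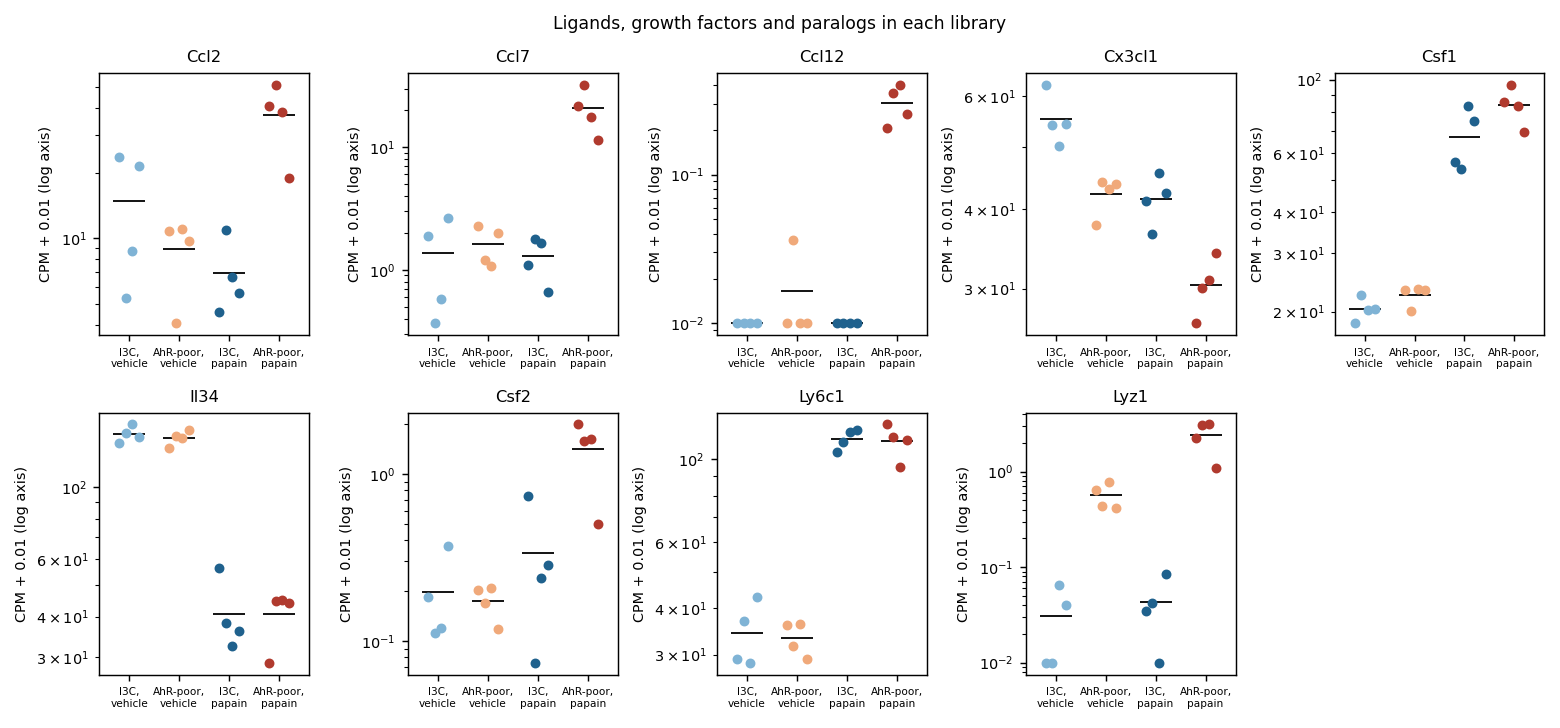
CPM plus 0.01 (log axis) of the 7 ligands and growth factors and of the paralogs Ly6c1 and Lyz1 in each library, with a line at the group mean. Ccl7 and Lyz1 stand highest in the 4 AhR-poor papain libraries, whereas Csf1 and Ly6c1 are higher, and Il34 lower, in the papain libraries of both diets.

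Of 14 other monocyte genes, 12 were called higher on the AhR-poor diet with papain and 9 rose with papain on that diet, with median log2 fold changes of 4.98 and 3.49. With vehicle 1 was called (Ace, at 1.64, named after its value was seen), and with papain on the I3C diet 0 rose and 1 fell. Cd14, the co-receptor for lipopolysaccharide, was at 154 CPM on average in the AhR-poor papain group and at 4.26 CPM in the I3C papain group, a log2 difference of 5.16 ± 0.65 (adjusted p = 9.45e-05). Nr4a1, a transcription factor that nonclassical monocytes need but that keratinocytes also carry, had the highest mean of the list and behaved otherwise. Nr4a1 fell with papain on the I3C diet (log2 -1.14 ± 0.24, adjusted p = 0.00155), and on neither treatment did the diets differ in it by the test (-0.37 ± 0.24 with vehicle and 0.16 ± 0.24 with papain). With the genes at 0 in a whole group taken at their bound, the median with vehicle was 1.13 between the diets, beside 1.65 fitted.

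Among 25 other macrophage genes, 23 passed the filter. With vehicle 6 were called higher on the AhR-poor diet, namely the complement genes C1qa, C1qb and C1qc, and Folr2, Pf4 and Trem2, and with papain 14. Papain raised 6 on the AhR-poor diet, and on the I3C diet it raised 4 and lowered 2. The 4 that rose on the I3C diet were C1qa, C1qb and Stab1, at 2.23, 2.20 and 2.06, and Timd4, whose I3C vehicle group held 6 reads (a ratio of 18.1, 95% exact counting interval 8.05 to 50.3). These 4 rose with papain on the AhR-poor diet too, at 1.53, 1.85, 1.46 and 3.50. They and the genes called with vehicle are named after their values were seen. Stab1, a scavenger receptor of macrophages and endothelium, was at 88.2 CPM on average in the I3C papain group, 57.2 CPM in the AhR-poor papain group and 20.8 to 21.2 CPM in the vehicle groups. Gas6, a ligand of Mertk, and Maf, a macrophage transcription factor, had the highest means of the list, at 363 and 297 CPM. Neither reached the fold threshold in any comparison. With papain Maf was lower on the AhR-poor diet, at 187 to 250.5 CPM against 294 to 364 CPM in the I3C libraries. Gas6 averaged 278 and 317 CPM there, and its libraries overlapped. The list's summed level was 586 to 695 CPM in the AhR-poor and 721 to 833 CPM in the I3C papain libraries, although 20 of the 23 estimates were above 0. With vehicle the sums of the diets overlapped. The median log2 fold change of the 23 genes that passed the filter was 1.95 between the diets with vehicle and 2.84 with papain. For papain on the I3C diet it was -0.77.

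All 9 genes carried by leukocytes or myeloid cells in general (Ptprc, Spi1, Tyrobp, Fcer1g, Laptm5, Cd53, Mpeg1, Aif1 and Ctss) were called higher on the AhR-poor diet with papain, and all 9 rose with papain on that diet. Spi1, which encodes PU.1, was among them. With vehicle 0 were called in edgeR, 8 had an unadjusted p under 0.05, and DESeq2 called 2. Papain raised 2 on the I3C diet. Ptprc, the pan-leukocyte gene that encodes CD45, averaged 7.37 and 15.0 CPM with vehicle and 9.81 and 45.5 CPM with papain on the I3C and the AhR-poor diet, a log2 difference of 2.21 ± 0.36 with papain (adjusted p = 0.000623). Laptm5 and Ctss differed there by 1.93 ± 0.33 and 2.75 ± 0.39 (adjusted p = 0.000895 and 0.000212).

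Markers of other cells moved in the same libraries as the members, and their part in the members' values was not tested. All 10 fibroblast markers (such as Col1a1, Col3a1 and Dcn) were called higher on the AhR-poor diet with vehicle and with papain, and all 10 rose with papain on that diet. Their summed level was 10.5 to 13.8 and 110 to 196 CPM with vehicle on the I3C and the AhR-poor diet, and 2.34 to 12.2 and 293 to 753 CPM with papain. Col3a1, a collagen of the dermis, differed by 5.47 ± 0.55 with vehicle and 6.64 ± 0.54 with papain (adjusted p = 0.000111 and 2.52e-06). Blood endothelial markers were called higher on the AhR-poor diet in 9 of 10 with vehicle and 10 of 10 with papain, with summed levels of 1.29 to 4.05 and 16.1 to 42.5 CPM, and then 4.03 to 4.94 and 33.0 to 74.9 CPM. None of the fibroblast, endothelial, red cell or keratinocyte markers was at 0 throughout a group.

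Red cell markers differed between the diets as well. All 4 globin genes were called higher on the AhR-poor diet, with medians of 6.01 with vehicle and 6.75 with papain. Their summed level was 0.230 to 2.99 and 71.0 to 151 CPM with vehicle, and 0.343 to 16.7 and 259 to 1220 CPM with papain. T106 was the highest I3C library for this list, and T105 the highest of all, as for most members. Mast cell markers were called higher in 1 of 6 with vehicle and 5 of 6 with papain, summing to 1.39 to 1.92, 3.02 to 7.22, 1.27 to 3.51 and 8.13 to 22.2 CPM in the I3C vehicle, AhR-poor vehicle, I3C papain and AhR-poor papain libraries. Ms4a2 was at 0 in both I3C groups and Cpa3 in the I3C papain group.

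Neutrophils carry Lyz2, and their markers did not follow a single pattern. Of 13 markers, 11 passed the filter, 8 rose with papain on the AhR-poor diet and 4 on the I3C diet, and 6 were called higher on the AhR-poor diet between the papain groups. With vehicle 0 were called between the diets in edgeR, 6 had an unadjusted p under 0.05, and DESeq2 called 4. The summed level was 1.64 to 4.77 and 9.68 to 11.8 CPM with vehicle, and 50.9 to 92.5 and 88.2 to 578 CPM with papain, on the I3C and the AhR-poor diet. Cxcr2, the neutrophil chemokine receptor, rose on both diets, by 5.10 ± 0.30 on the I3C and 4.89 ± 0.29 on the AhR-poor diet (adjusted p = 7.17e-09 and 1.28e-08), to averages of 24.2 and 34.3 CPM. S100a8 and S100a9, cytosolic proteins that keratinocytes can also make, rose on both diets too, and S100a9 differed between the diets with papain by 3.25 ± 0.51 (adjusted p = 0.000527). Other markers, named after their values were seen, were low in the I3C papain libraries and high in the AhR-poor papain libraries, as Lyz2 was (0.717 and 74.8 CPM on average). Csf3r, the receptor of the neutrophil growth factor, averaged 0.739 and 57.8 CPM there (log2 difference 6.23 ± 0.83, adjusted p = 0.000154), and the secreted protein Retnlg 0.0891 and 8.64 CPM (6.48 ± 0.81, adjusted p = 5.25e-05). Mmp8, a collagenase of neutrophil granules, averaged 0.108 and 4.63 CPM (5.37 ± 0.90, adjusted p = 0.00139). Ly6g, by which mouse neutrophils are sorted, was at 0 in all 12 libraries of the other groups and at 0.218 to 2.51 CPM in the AhR-poor papain libraries, where papain raised it at least 22.9-fold over the floor of 3 reads in each vehicle library (adjusted p = 0.00621). Between the papain groups its adjusted p was 0.0111. Ly6g passed the filter only through the AhR-poor papain group, so its tests add no separate support. Camp, Elane and Ngp were also at 0 in the I3C papain group, but unlike Ly6g each had reads in the AhR-poor vehicle group. Mpo, which did not pass the filter, went the other way, at 0 in the AhR-poor papain group but not in the I3C papain group. The part of neutrophils in the Lyz2 values was not tested.

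Langerhans cell markers, the list nearest to the members in the epidermis, differed by less. In edgeR 0 of 8 were called between the diets with vehicle, although 7 had an unadjusted p under 0.05 and DESeq2 called 7, and with papain 2 were called higher on the AhR-poor diet, Itgax and Ltc4s (named after their values were seen, at 1.72 ± 0.38 and 1.19 ± 0.29). Papain changed 0 of 8 on either diet (1 with an unadjusted p under 0.05 on each, and 0 in DESeq2). Their summed level was 299 to 568 and 830 to 937 CPM with vehicle, and 358 to 775 and 912 to 1144 CPM with papain, so that only T106 among the I3C libraries came near the AhR-poor range. Cd74 and H2-Ab1, which serve antigen presentation, missed the threshold, with differences between the diets of 1.28 ± 0.30 and 1.46 ± 0.33 with vehicle and 1.21 ± 0.30 and 1.23 ± 0.33 with papain (adjusted p from 0.0106 to 0.0307). For Epcam, an adhesion protein, the differences were 0.16 ± 0.12 and 0.19 ± 0.12 (adjusted p = 0.682 and 0.323). Dendritic cell markers, of which 4 of 6 passed the filter, were called in 0 with vehicle (2 with an unadjusted p under 0.05, 0 in DESeq2) and in 1 in each of the other comparisons. T cell markers were called in 1 of 5 between the diets with papain and in 1 with papain on the AhR-poor diet. In the remaining 2 comparisons 0 were called, with an unadjusted p under 0.05 in 0 and 1 and 0 calls in DESeq2.

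**Figure D5:**
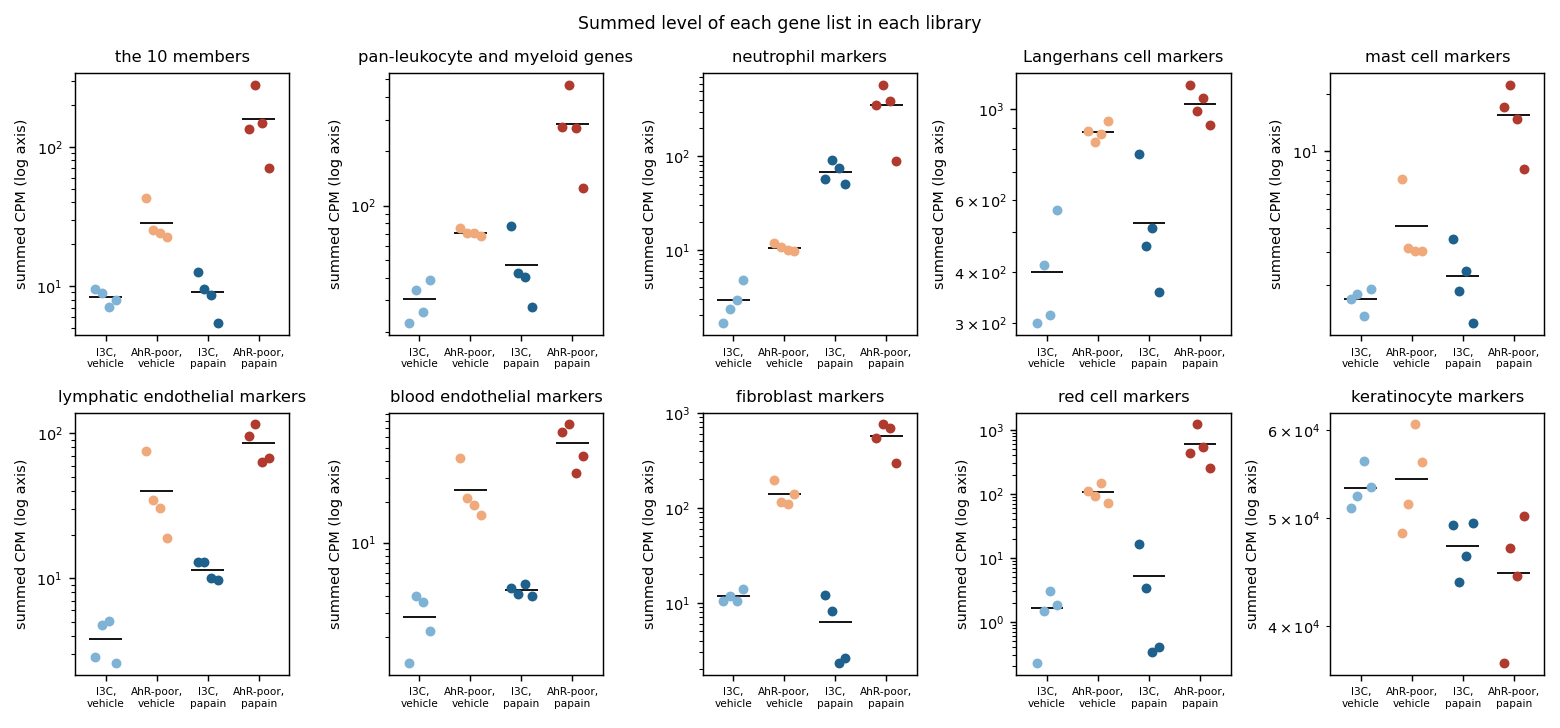
Summed CPM (log axis) of the 10 members and of 9 lists of other genes in each library, with a line at the group mean. Fibroblast, endothelial and red cell lists separate the diets as the members do. The Langerhans cell list separates them too, from 774.5 CPM or less on the I3C diet to 829.5 CPM or more on the AhR-poor diet. Within each treatment the pan-leukocyte and mast cell lists also separate the diets. The summed neutrophil list is higher in the papain than in the vehicle libraries of both diets, and the keratinocyte list stays between 37080 and 60730 CPM.

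Within groups, the members varied together to unequal degrees. The measure was Pearson's r of log2(CPM + 0.1) after subtracting each group's mean, over the 16 libraries, for the 8 members with a mean of at least 1 CPM. Over the 28 pairs r ranged from 0.29 (Lyz2 with Cd68) to 0.91 (Mrc1 with Msr1), with a median of 0.65. The libraries of a pair share depth and composition, and the values are a description only. The genes most like each member were then sought among the 13026 genes at this level, with all members left out of the ranking. The 3 most like Lyz2 were the collagen gene Col1a2 (0.97) and the globin genes Hbb-bt and Hba-a1 (0.96 and 0.95). Those of Mrc1 were F13a1, Zeb2 and Ccl9 (0.92, 0.91 and 0.91), and those of Msr1 were Fcgr1, F10 and Ccl9 (0.94, 0.89 and 0.89). Csf3r and Ptafr were among those most like Ly6c2 (0.94 and 0.93), and Sp110, Pirb and Dok2 were most like Ccr2 (0.93, 0.92 and 0.89). For Adgre1 the genes were Rasgrp4, Runx3 and Gzmc (0.96, 0.96 and 0.94), for Lyve1 Adamtsl4, Col4a2 and Emb (0.90, 0.89 and 0.89), and for Cd68 Sh2b2, Mxd1 and Eepd1 (0.92, 0.91 and 0.91).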

How the data were processed

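The samples were cells of footpad epidermis, split from the dermis with dispase and cleared of dead cells, in 16 libraries. The authors made TruSeq Stranded mRNA libraries (100 nt paired reads, 3 sequencing units, unit of each library not given), and the submitters' processing notes name FastQC, STAR, DESeq2 and the build mm10. The authors deposited raw counts of reads per gene without normalization. The counting tool, annotation and strand setting are not given in the sources used here.

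Groups came from the sample labels, with 4 libraries each and no unmapped columns. P-values measure the spread between these libraries, and the closest replicate pair still differed by a chi-square of 9.43 per degree of freedom. Symbols, exon lengths and overlaps came from GENCODE M21 (GRCm38). Genes that reached 10 counts in total were fitted in edgeR 4.0.16 (R 4.3.3) with TMM factors, a mean per group and the robust quasi-likelihood F test. CPM uses TMM-scaled totals. Single members were compared by two-sided exact permutation tests of log2(CPM + 0.1) in scipy 1.17.1 (40 tests, so described beside the fit). With up to 3 reads in every library of a group, a ratio of summed reads with its exact 95% interval is given. Tried as alternatives were DESeq2 1.42.0, scaling by RLE or by library size only, filters (filterByExpr, every gene with a count, 10 counts in every library), fits of the compared libraries alone, thresholds (adjusted p below 0.05, no fold minimum), each library left out, and a pseudocount of 1. The fit was tested on simulated data.

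The members and lists were chosen with earlier results of these data known. Genes named are all members, ligands, growth factors and paralogs, and the 3 genes of highest mean in other lists. Also named are the 3 genes most like each member, members left out, and others where said. Some genes that this rule names are not reported here.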

Additional observations from a re-analysis of the deposited data

Results flagged for a closer look

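In 4 of 40 sets of 4 libraries (each member in each group), 1 library lay far from the other 3 by Dixon's test. The usual rate of about 1 set in 20 by chance holds for continuous values. It does not hold for tied counts of a few reads, as in the T110 sets below, so the number of flags is a description only. T110 had the highest Mrc1 and Msr1 of the I3C vehicle libraries, at 0.136 and 0.0272 CPM, which rest on 5 reads and 1 read. The same library held 0 reads of Ly6c2 (0.0 CPM) where each of the others held 1. T100 was at 1.88 CPM of Mrc1, the highest AhR-poor vehicle library. It was the highest of that group for 7 members and for the fibroblast, lymphatic and blood endothelial and mast cell lists. The same held for the pan-leukocyte, neutrophil, dendritic cell, T cell and other monocyte lists. It did not hold for the Langerhans cell, red cell, keratinocyte, other macrophage, ligand and paralog lists. For the other macrophage and keratinocyte lists T100 was the lowest library of that group, at 796.5 and 48500 CPM. The members' interaction was called in 0 of 10.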

How the results depend on the processing

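No paired analysis was possible because the library codes are not shared between groups. With vehicle, the 4 members called became 2 when every gene with a count was tested, 1 of the 3 members that remain with at least 10 counts in every library, and 7 when the vehicle libraries were fitted alone. They became 3 with RLE factors and 3 with library size only, where Lyz2 was lost (adjusted p = 0.0101 and 0.0107), and 6 in DESeq2, where Adgre1 and Msr1 were added. They ranged from 1 to 5 when 1 library was left out. Over all genes, 352 were called higher with vehicle in the main fit, 502 with the vehicle libraries alone and 589 in DESeq2. With at least 10 counts in every library, 3 members were called between the diets with papain, in place of 9, and 1 rose with papain on the AhR-poor diet, in place of 7, since only Cd68, Adgre1 and Lyve1 were then tested. For papain on the I3C diet, 0 to 1 members were called when a library was left out, and 1 (Adgre1, lower) without T105 and T106, which was chosen after seeing the data. The interaction stayed at 0 members. Over all genes it ran from 4 to 207 across the other settings, the 207 in DESeq2.

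Estimates that turned their sign were far from a call. With papain on the I3C diet, Cd68 was -0.023 with library size only and ran from -0.13 (without T110) to 0.17 when a library was left out, with -0.04 and -0.08 without T113 and T114. Mrc1 ran there from -0.90 (without T106) to 1.82, Cd163 from -0.77 (without T106) to 2.48, and Lyve1 from -0.49 to 0.0069 (without T115). Without T105 and T106, Mrc1 was -0.89 and Cd163 -0.76. The interaction of Cd163 ran from -0.33 (without T110) to 2.93. A pseudocount of 1 changed the side of 0.05 for 0 of the 40 permutation tests. Depth limits Msr1, Ly6c2, Cd163 and Mrc1 in the I3C vehicle group, which held 1, 3, 5 and 8 reads.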
